A study of Mus musculus with 9 samples.

Results

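The genes described here encode the NADPH oxidases of the colon, their partners, inducible nitric oxide synthase and an epithelial glutathione peroxidase. The members are Duox2, Duoxa2, Nox1, Noxo1, Noxa1, Cybb, Cyba, Ncf1, Nos2 and Gpx2, chosen by symbol, and they are 10 of the 27719 genes and loci with counts. All 10 were found in the count table and all 10 passed the filter on low counts. Colon RNA was taken from 9 C57BL/6J mice, with 3 mice per group and 1 library per mouse. Control mice drank distilled water. DSS mice received 2.5% dextran sodium sulfate (DSS), a sulfated polymer that injures the colonic epithelium, for 7 days. DSS + EA mice received the same DSS and, starting after 5 days of it, electroacupuncture (EA, current passed through acupuncture needles) at the ST36 point of both hind limbs, 30 minutes daily for 5 days at 2 Hz and 0.2 mA. Restraint of the same length, but no EA, was given to the other groups, and none of the 3 groups received EA without DSS. Ages of the mice were not given in the sources used here.

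NADPH oxidases move electrons from NADPH across a membrane to oxygen and release superoxide or hydrogen peroxide. In colonic epithelium the superoxide-producing NOX1 works with the organizer NOXO1, the activator NOXA1 and the membrane subunit p22phox, encoded by Cyba, whereas DUOX2 needs the maturation factor DUOXA2 and releases hydrogen peroxide into the mucus. Phagocytes use NOX2, encoded by Cybb, with p22phox and cytosolic subunits such as p47phox, encoded by Ncf1. Nos2 encodes the nitric oxide synthase that inflammatory signals induce, and Gpx2 encodes an epithelial glutathione peroxidase that reduces hydroperoxides.

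In GENCODE M21 on GRCm38 all 10 members are protein coding. Nox1 (chrX:134086421-134221956) and Cybb (chrX:9435252-9487771) lie on chromosome X, and Noxo1 (chr17:24696234-24700529), Noxa1 (chr2:25085667-25095149), Cyba (chr8:122424776-122432930) and Ncf1 (chr5:134220053-134229625) on autosomes. Nos2 spans chr11:78920787-78960254 and Gpx2 chr12:76792333-76795554. Duox2 (chr2:122279247-122298449) and Duoxa2 (chr2:122298900-122302885) lie head to head on chromosome 2, and their RefSeq start sites are 673 bases apart. Promoter sequences of this pair and of the 3 genes of the NOX1 complex are shown because the genes within each set encode proteins that work together, while their levels are set side by side below. The sequences are those of RefSeq on GRCm38.p6, from 250 bases before to 50 bases after each start, and capitals mark matches to the motifs searched on both strands. They come from chr2:122298178-122298477 (minus strand), chr2:122298650-122298949 (plus strand), chrX:134111805-134112104 (minus strand), chr17:24695984-24696283 (plus strand) and chr2:25095156-25095455 (minus strand).
Duox2: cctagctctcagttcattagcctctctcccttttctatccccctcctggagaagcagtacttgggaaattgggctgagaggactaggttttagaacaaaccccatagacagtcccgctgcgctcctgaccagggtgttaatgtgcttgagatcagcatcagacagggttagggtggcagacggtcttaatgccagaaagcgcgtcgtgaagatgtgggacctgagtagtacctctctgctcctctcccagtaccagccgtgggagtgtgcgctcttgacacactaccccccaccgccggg
Duoxa2: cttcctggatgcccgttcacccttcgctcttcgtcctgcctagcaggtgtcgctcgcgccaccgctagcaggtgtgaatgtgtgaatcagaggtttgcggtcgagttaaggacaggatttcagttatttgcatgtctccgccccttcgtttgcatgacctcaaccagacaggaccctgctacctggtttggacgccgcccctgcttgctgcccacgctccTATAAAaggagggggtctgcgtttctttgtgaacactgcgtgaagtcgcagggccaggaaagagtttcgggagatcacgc
Nox1: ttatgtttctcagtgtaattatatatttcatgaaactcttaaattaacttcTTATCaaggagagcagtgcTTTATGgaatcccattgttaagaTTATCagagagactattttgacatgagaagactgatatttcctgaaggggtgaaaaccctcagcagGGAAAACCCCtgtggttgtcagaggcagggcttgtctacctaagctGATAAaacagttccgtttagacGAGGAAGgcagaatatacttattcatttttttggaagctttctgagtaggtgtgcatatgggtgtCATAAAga
Noxo1: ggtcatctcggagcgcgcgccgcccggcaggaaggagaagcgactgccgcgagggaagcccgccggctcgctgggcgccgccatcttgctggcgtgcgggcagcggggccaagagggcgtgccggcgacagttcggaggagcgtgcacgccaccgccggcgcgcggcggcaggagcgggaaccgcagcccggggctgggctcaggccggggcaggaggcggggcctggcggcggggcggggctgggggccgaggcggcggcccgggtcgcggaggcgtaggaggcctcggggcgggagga
Noxa1: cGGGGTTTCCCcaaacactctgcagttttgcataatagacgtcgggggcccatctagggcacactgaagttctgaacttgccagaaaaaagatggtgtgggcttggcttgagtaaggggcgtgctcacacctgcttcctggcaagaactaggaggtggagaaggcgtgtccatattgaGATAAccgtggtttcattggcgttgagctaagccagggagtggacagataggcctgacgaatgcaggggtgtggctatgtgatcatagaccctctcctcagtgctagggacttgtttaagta

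The motifs were the NF-kB consensus, the STAT motif TTCNNNGAA, the antioxidant response element TGACNNNGC, the PU.1 core GAGGAAG, the GATA core GATAA, the TATA box TATAAA and the CDX motif TTTATG. The Duoxa2 window held a TATA box from -30 to -25, whereas none of these letters occurred in the Duox2 window. The Nox1 window held an NF-kB match, a PU.1 core, 3 GATA cores and 2 CDX motifs, and the Noxa1 window held an NF-kB match and a GATA core. The Noxo1 window, with a GC content of 80.3% against 38% for Nox1, held no match. Of 32851 promoters of this length in the table, 4.51% held an NF-kB match, 13.6% a PU.1 core, 25.4% a GATA core, 13.6% a TATA box, 11.9% a CDX motif, 8.3% a STAT motif and 12.4% an antioxidant response element. Among the other members, Cybb and Cyba held GATA cores only, Ncf1 a STAT motif and Gpx2 a CDX motif. These matches describe letters, and binding was not measured. Nos2 has no entry in the promoter table.

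Library totals lay between 2627695 and 4235576 counts. Levels are given in CPM, the read count scaled to library size by TMM, a scale on which 3 counts were worth 0.652 to 1.15 CPM depending on the library. All 12 epithelial markers had counts in every library, and their sum took 1.08% to 1.29% of counts in control mice, 0.260% to 1.08% in DSS mice and 0.999% to 1.18% in DSS + EA mice. Neutrophil markers took at most 0.0149% in control mice, where 4 to 8 of the 12 were at 0, 0.446% to 2.74% in DSS mice and 0.114% to 0.153% in DSS + EA mice. Macrophage and monocyte markers took 0.0255% to 0.0282%, 0.0916% to 0.160% and 0.0540% to 0.0700%. DSS + EA libraries 2 and 3 stood apart most: pancreatic acinar markers took 4.37% of the counts of mouse 2 and 1.94% of mouse 3. They took 0.0689% in mouse 1 and at most 0.0897% in the other groups, where control reads came mostly from Cela1 and Clps. DSS + EA mouse 1 nevertheless held 241 reads of Prss2, 256 of Cela2a and 179 of Try4. No control or DSS mouse had more than 3 reads of any of these genes. In whole-tissue RNA, fewer cells of a type and less RNA per cell cannot be told apart.

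Compared with the control group, DSS mice had higher levels of the phagocyte oxidase genes, Nos2 and Gpx2, and lower levels of the 3 genes specific to the NOX1 complex. At an adjusted p under 0.05, 5 members rose and 3 fell, where 21.5% of the 12566 genes tested rose and 19.5% fell. In DSS + EA against DSS mice, Nox1, Noxo1 and Noxa1 rose and Cybb and Cyba fell, where 17.2% of genes rose and 18.3% fell. In DSS + EA against control mice only Nos2 passed the threshold, in the upward direction in which 3.00% of genes passed, and 0.637% of genes passed downward. With a log2 fold change beyond 2.5 and an unadjusted P under 0.01, the study's definition of a differentially expressed gene (DEG), Cybb, Ncf1 and Nos2 were DEGs of DSS against control, Nox1 of DSS + EA against DSS, and Nos2 of DSS + EA against control. The shares of all genes that were DEGs in these 3 comparisons were 10.2%, 6.41% and 2.08%. The 3 comparisons share groups, so their results are not independent of each other.

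**Figure D1:**
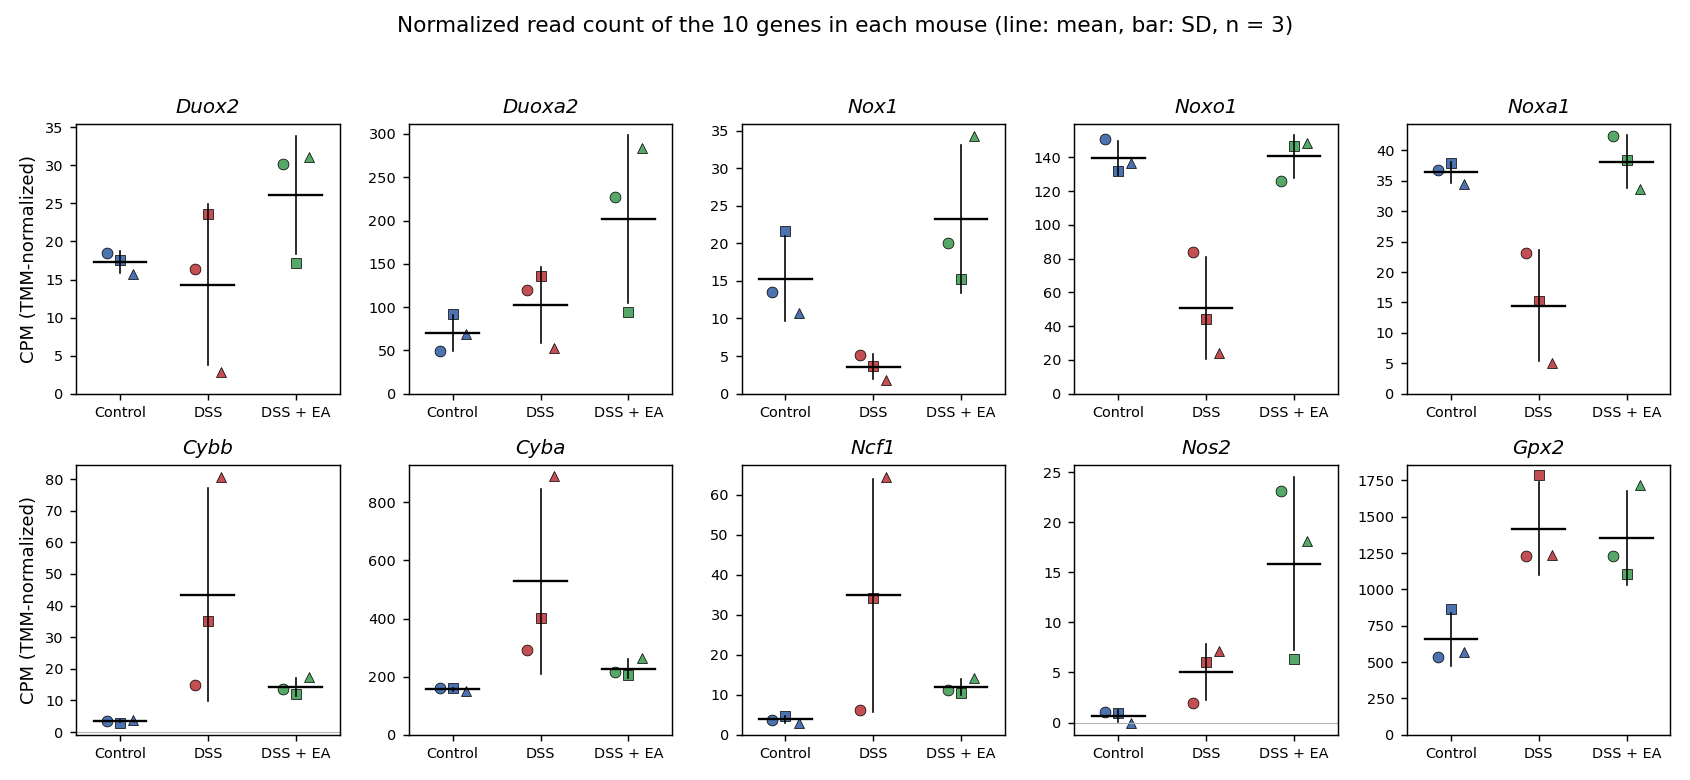
CPM of the 10 genes (vertical axes, linear) in control, DSS and DSS + EA mice, with circles, squares and triangles for mice 1, 2 and 3, horizontal lines at the means and vertical bars of 1 SD (n = 3). Nox1, Noxo1 and Noxa1 are lowest in the 3 DSS mice, Cybb, Cyba and Ncf1 are highest in DSS mice 2 and 3, and Nos2 is highest in DSS + EA mice 1 and 3.

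Nox1, the catalytic subunit of the colonic epithelial oxidase, measured 13.5, 21.6 and 10.7 CPM in control mice, 5.15, 3.69 and 1.87 CPM in DSS mice and 20.1, 15.3 and 34.3 CPM in DSS + EA mice. Each DSS mouse lay below every mouse of the other groups, and the control and DSS + EA ranges overlapped. The log2 fold change was -2.09 ± 0.45 (SE) in DSS against control (adjusted p = 0.00509, edgeR quasi-likelihood test) and 2.69 ± 0.44 in DSS + EA against DSS (adjusted p = 0.00209), a 6.46-fold higher level. Against control, DSS + EA mice differed by 0.61 ± 0.39 on the log2 scale (adjusted p = 0.486). The DSS values rest on 39 reads in all. Nox1 shares 399 exonic bases with Cstf2 on the opposite strand, which had 18 to 30 reads in DSS mice and 22 to 51 in the other groups.

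Noxo1, the organizer of the complex, measured 151, 132 and 136 CPM in control mice, 83.6, 44.1 and 24.0 CPM in DSS mice and 126, 147 and 149 CPM in DSS + EA mice. No DSS mouse reached the lowest value of the other groups, whose means were 139.6 ± 9.9 (SD, n = 3) in control and 140.5 ± 12.6 in DSS + EA mice. The gene fell by 1.47 ± 0.36 on the log2 scale with DSS (adjusted p = 0.00993) and was 1.47 ± 0.36 higher in DSS + EA than in DSS mice (adjusted p = 0.0118). Noxo1 shares 2122 exonic bases with Tbl3 on the opposite strand, and whether strand was used in counting was not given in the sources used here. Tbl3 had 105 to 145 reads in control, 110 to 171 in DSS and 127 to 145 in DSS + EA mice.

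Noxa1, the activator, measured 36.9, 37.9 and 34.5 CPM in control mice, 23.2, 15.2 and 4.99 CPM in DSS mice and 42.3, 38.5 and 33.6 CPM in DSS + EA mice. The DSS range again lay below the other groups. Its log2 fold change was -1.33 ± 0.41 with DSS (adjusted p = 0.0258) and 1.40 ± 0.41 in DSS + EA against DSS (adjusted p = 0.0247). In fits of only the 2 groups compared, the adjusted p was 0.0581 and 0.0613. Each call held in 5 of the 9 fits that left out 1 mouse: the former was lost without any of the control mice or DSS mouse 2, with adjusted p between 0.0526 and 0.0625, and the latter without DSS mouse 2 or any of the DSS + EA mice, with adjusted p between 0.0537 and 0.069. Noxa1 shares 50 exonic bases with Entpd8 on the opposite strand, which had 166 to 186 reads in control, 6 to 48 in DSS and 122 to 155 in DSS + EA mice. Within the DSS group, mouse 3 had the lowest and mouse 1 the highest level of Nox1, Noxo1 and Noxa1, the same order as the summed epithelial markers in these mice.

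Neither gene of the DUOX2 pair passed the threshold in any comparison. Duox2, whose protein releases hydrogen peroxide at the epithelial surface, measured 18.6, 17.6 and 15.7 CPM in control mice, 16.4, 23.7 and 2.81 CPM in DSS mice and 30.1, 17.2 and 31.1 CPM in DSS + EA mice. DSS mouse 3, with 9 reads, stood far below the other mice, and the DSS coefficient of variation was 74.1% against 8.37% in control mice. The log2 fold change was -0.26 ± 0.54 with DSS (adjusted p = 0.732), 0.85 ± 0.54 in DSS + EA against DSS (adjusted p = 0.236) and 0.60 ± 0.54 in DSS + EA against control (adjusted p = 0.629). Without DSS mouse 3, the difference between DSS and control mice was 0.22 ± 0.30, with the opposite sign (adjusted p = 0.598).

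Duoxa2, the maturation factor, measured 49.6, 91.8 and 69.4 CPM in control mice, 120, 136 and 53.1 CPM in DSS mice and 227, 94.9 and 284 CPM in DSS + EA mice. All 3 DSS + EA mice exceeded every control mouse, and the DSS range overlapped both groups. Its log2 fold change in DSS + EA against control was 1.53 ± 0.45 with an unadjusted p of 0.00678 and an adjusted p of 0.104, which did not pass. DESeq2 gave an adjusted p of 0.0242 and a fit of only these 2 groups 0.0425, while 0 of the 9 fits without 1 mouse passed. With DSS the log2 fold change was 0.55 ± 0.44 (adjusted p = 0.341), and in DSS + EA against DSS it was 0.97 ± 0.44 (adjusted p = 0.11). Duoxa2 shares 682 exonic bases with Duoxa1 on the opposite strand, which had at most 4 reads in any mouse. In control mice Duoxa2 averaged 70.2 CPM and Duox2 17.3 CPM.

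**Figure D2:**
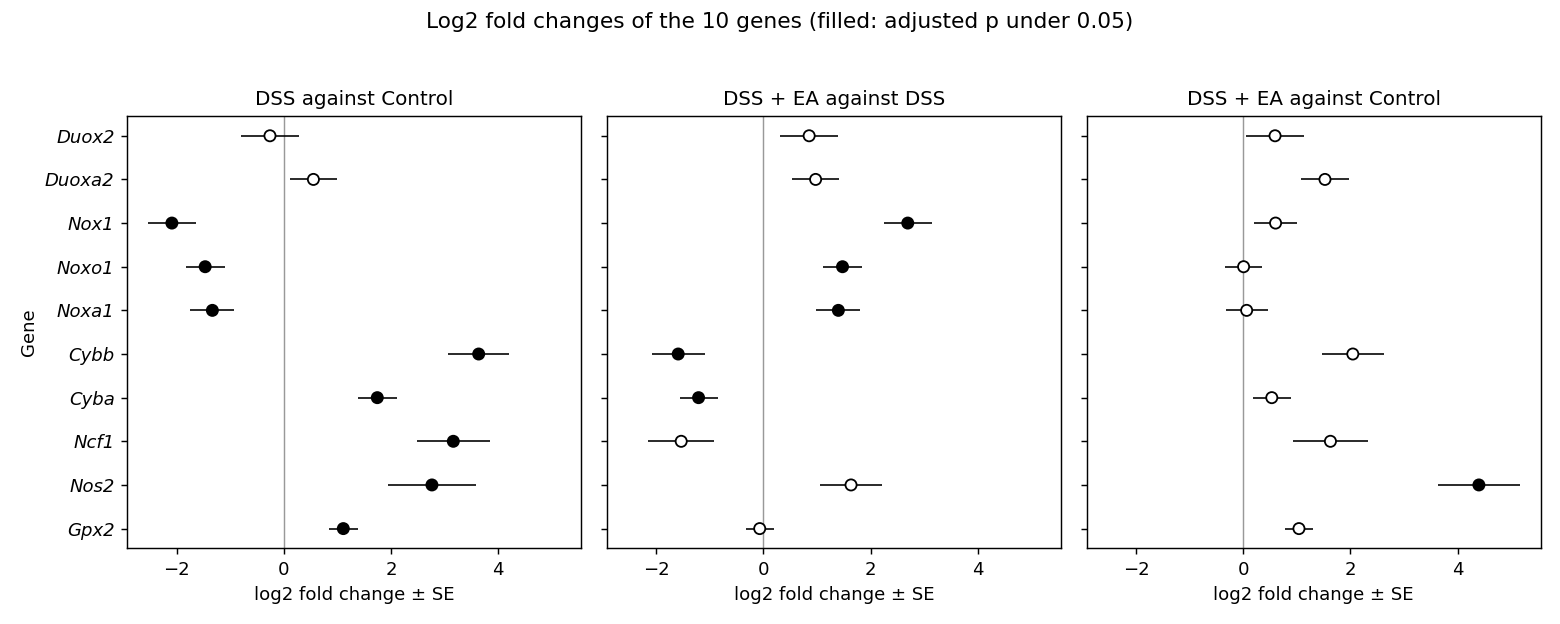
Fitted log2 fold changes of the 10 genes with bars of 1 SE (horizontal axes) in the 3 comparisons, where filled points have an adjusted p under 0.05. The NOX1 complex genes lie left of 0 with DSS and right of 0 in DSS + EA against DSS, the phagocyte oxidase genes lie on the opposite sides, and Nos2 lies right of 0 in all 3 panels.

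Cybb, the catalytic subunit of the phagocyte oxidase, measured 3.56, 2.99 and 3.83 CPM in control mice, 14.8, 35.0 and 80.5 CPM in DSS mice and 13.7, 11.95 and 17.4 CPM in DSS + EA mice. Every DSS and DSS + EA mouse lay above the control mice, while DSS mouse 1 lay inside the DSS + EA range. The log2 fold change was 3.64 ± 0.57 with DSS (adjusted p = 0.00102), a 12.4-fold higher level. In DSS + EA against DSS it was -1.59 ± 0.50 (adjusted p = 0.0319, and 0.0728 with only these 2 groups). This call held in 3 of the 9 fits without 1 mouse and was lost without control mouse 1, DSS mouse 2 or 3 or any of the DSS + EA mice, with a log2 fold change of -0.80 without DSS mouse 3. Against control mice, DSS + EA mice showed a log2 fold change of 2.05 ± 0.58 (adjusted p = 0.0912, and 0.0124 with DESeq2). That difference passed in 2 of the 9 fits without 1 mouse.

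Ncf1, the organizer of the phagocyte oxidase, measured 3.81, 4.65 and 3.07 CPM in control mice, 6.11, 34.1 and 64.3 CPM in DSS mice and 11.3, 10.5 and 14.3 CPM in DSS + EA mice. DSS mouse 1 was lower than every DSS + EA mouse, and DSS mice 2 and 3 were higher. Ncf1 rose with DSS by 3.16 ± 0.69 on the log2 scale (adjusted p = 0.00536). The log2 fold change of -1.53 ± 0.61 in DSS + EA against DSS did not pass (adjusted p = 0.0749). DESeq2 gave 0.0403, a fit of only these 2 groups 0.136 and a term for replicate number 0.14. This difference passed in 1 of the 9 fits without 1 mouse, that without DSS mouse 1. Ncf1 shares 408 exonic bases with Gtf2ird2 on the opposite strand, which had 1 to 8 reads in control mice, beside 8 to 15 for Ncf1, and 2 to 9 in the other groups.

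Cyba, whose product p22phox serves both NOX1 and NOX2, measured 161, 160 and 152 CPM in control mice, 292, 401 and 891 CPM in DSS mice and 216, 205 and 264 CPM in DSS + EA mice. The 3 groups did not overlap, with DSS + EA mice between control and DSS mice. The log2 fold change was 1.74 ± 0.36 with DSS (adjusted p = 0.00414) and -1.21 ± 0.35 in DSS + EA against DSS (adjusted p = 0.0246). The latter call was lost with only these 2 groups (adjusted p = 0.0634) and without any of the DSS + EA mice, and the log2 fold change was -0.60 without DSS mouse 3. Cyba averaged 157.5 CPM in control mice, against 3.46 CPM for Cybb and 15.3 CPM for Nox1. Cybb, Ncf1 and Cyba were each lowest in DSS mouse 1 and highest in DSS mouse 3, and the macrophage and monocyte marker sum had the same order. Neutrophil markers took 0.446% of counts in DSS mouse 1 and 2.74% in DSS mice 2 and 3, and their part in these results was not tested.

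Nos2 had few reads: 4, 3 and 0 in control mice, 6, 28 and 23 in DSS mice and 76, 17 and 57 in DSS + EA mice. In CPM this was 1.02, 0.997 and 0 in control mice, 1.93, 6.08 and 7.18 in DSS mice and 23.1, 6.35 and 18.1 in DSS + EA mice. DSS + EA mouse 2 lay within the DSS range, and mice 1 and 3 lay above it. The log2 fold change was 2.76 ± 0.81 with DSS (adjusted p = 0.0217) and 4.40 ± 0.76 in DSS + EA against control (adjusted p = 0.0137). In DSS + EA against DSS it was 1.63 ± 0.58, which did not pass (adjusted p = 0.0515). The adjusted p was 0.0298 by DESeq2 and 0.0305 without a filter on low counts. With library totals it was 0.0725, with only these 2 groups 0.0702 and with a term for replicate number 0.109. This difference passed in 2 of the 9 fits without 1 mouse, and without DSS + EA mouse 1 the adjusted p was 0.177. From pooled reads, DSS + EA mice had 3.15 times the level of DSS mice (95% interval 2.31 to 4.35) and DSS mice 7.13 times that of control mice (3.24 to 18.5), where these exact intervals cover counting error only. The call of DSS against control held in 4 of the 9 fits without 1 mouse and was lost without any of the control mice, DSS mouse 2 or DSS mouse 3. That of DSS + EA against control held in 6 and was lost without control mouse 1 or 2 or DSS + EA mouse 3, and without 1 mouse its log2 fold change lay between 3.94 and 4.81.

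Gpx2, which removes peroxides in crypt epithelium, measured 537, 865 and 567 CPM in control mice, 1226, 1788 and 1239 CPM in DSS mice and 1227, 1107 and 1719 CPM in DSS + EA mice. All DSS and DSS + EA mice exceeded the control mice and overlapped each other. Gpx2 rose with DSS by 1.11 ± 0.27 on the log2 scale (adjusted p = 0.00887), a 2.16-fold higher level. DSS + EA against DSS gave -0.07 ± 0.26 (adjusted p = 0.859), and DSS + EA against control gave 1.04 ± 0.27, with an unadjusted p of 0.00301 and an adjusted p of 0.067. The latter passed with DESeq2 (adjusted p = 0.0128), with only the 2 groups (adjusted p = 0.0266) and in 1 of the 9 fits without 1 mouse.

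Because pancreatic marker reads were most abundant in DSS + EA libraries 2 and 3, the fit was repeated with both left out, an alternative chosen after seeing the data. The library of mouse 1, which was kept, held fewer such reads but was not free of them. DSS + EA mouse 1 was then assumed to vary like the mice of the other groups. Nox1 remained higher than in DSS mice, by 2.50 ± 0.53 on the log2 scale (adjusted p = 0.0358). The differences of Noxo1 (1.33), Noxa1 (1.56), Cybb (-1.64) and Cyba (-1.27) kept their signs, with adjusted p between 0.141 and 0.228. Nos2 against control was 4.92 ± 0.81 (adjusted p = 0.0607). Leaving the pancreatic marker genes out of the table, with all mice kept, changed no count of members called.

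Ratios of partner genes within each mouse were compared with exact two-sided permutation tests, in which 3 mice against 3 cannot give a p below 0.1. Of the 24 comparisons of ratios none could therefore pass, and the smallest adjusted p was 0.218. The ratio of Duox2 to Duoxa2 reads was 0.376, 0.194 and 0.229 in control mice, 0.138, 0.175 and 0.0557 in DSS mice and 0.133, 0.183 and 0.110 in DSS + EA mice. All DSS and DSS + EA mice thus had fewer Duox2 reads per Duoxa2 read than any control mouse, with log2 differences of -1.21 and -0.88 (exact permutation p = 0.1 for each). Nox1 relative to Noxo1 was 1.03 higher on the log2 scale in DSS + EA than in DSS mice, and relative to Noxa1 1.04 higher, without overlap of the groups (exact permutation p = 0.1 for each). Duox2 relative to Nox1 was 1.38 higher in DSS than in control mice (exact permutation p = 0.1), and its groups overlapped in the other comparisons. The log2 ratios were 0.458, -0.292 and 0.5421 in control mice and 1.64, 2.65 and 0.5475 in DSS mice. DSS mouse 3, with 9 Duox2 and 6 Nox1 reads, thus lay barely above control mouse 3. Cybb relative to Cyba was 1.69 higher in DSS and 1.47 higher in DSS + EA than in control mice (exact permutation p = 0.1 for each). Nos2 relative to Cybb was 2.90 higher in DSS + EA than in DSS mice, where the log2 ratios were -2.84, -2.50 and -3.46 in DSS mice and 0.75, -0.89 and 0.05 in DSS + EA mice (exact permutation p = 0.1). Gpx2 relative to Gpx1, a widely expressed glutathione peroxidase, was 0.82 higher in DSS than in control mice (exact permutation p = 0.1).

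Members were also set against the summed marker counts of the cell types that are known to express them, in 45 comparisons with a smallest adjusted p of 0.161. Relative to epithelial markers, Nox1 had a log2 difference of -0.88 in DSS against control mice and of 1.57 in DSS + EA against DSS mice, without overlap (exact permutation p = 0.1 for each). Noxo1 had log2 differences of -0.42 and 0.53 (exact permutation p = 0.1 for each), and Noxa1 differed by -0.35 and 0.52 with overlapping groups. Lgals4 gave the most reads of the epithelial sum, 20347 of 46171 in control mouse 1 and 4721 of 8402 in DSS mouse 3. Its log2 fold change in DSS against control was -0.67, beside a median of -1.16 for the epithelial markers. With the mean of log2 marker counts in place of the log2 sum, the differences of DSS against control were -0.10 for Noxo1 and -0.04 for Noxa1. Duoxa2 relative to epithelial markers was 1.71 higher in DSS and 1.53 higher in DSS + EA than in control mice, and Gpx2 was 2.35 and 1.16 higher (exact permutation p = 0.1 for each). For Duox2 the difference was 0.50 in DSS against control (exact permutation p = 0.9) and 0.66 in DSS + EA against control (exact permutation p = 0.1).

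Relative to neutrophil markers, Cybb and Ncf1 had log2 differences of -4.27 and -4.94 in DSS against control mice, and of 2.09 and 2.38 in DSS + EA against DSS mice (exact permutation p = 0.1 for each). The neutrophil sum rested on different genes in different groups. Ly6g gave 504 of 532, 449 of 481 and 43 of 59 of its reads in control mice. S100a8 gave 72682 of 116033 in DSS mouse 2 and 61439 of 88636 in DSS mouse 3. Relative to macrophage and monocyte markers, Cybb was 1.11 higher in DSS than in control mice (exact permutation p = 0.1) and differed by -0.39 in DSS + EA against DSS (exact permutation p = 0.6). Ncf1 (0.44, exact permutation p = 0.6) and Cyba (-0.58, exact permutation p = 0.2) had overlapping groups in DSS against control on that scale. Nos2 was 2.51 higher in DSS + EA than in DSS mice relative to macrophage and monocyte markers and 5.00 higher relative to neutrophil markers, without overlap (exact permutation p = 0.1 for each). Relative to epithelial markers the Nos2 groups overlapped, with a difference of 0.51 (exact permutation p = 0.8).

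**Figure D3:**
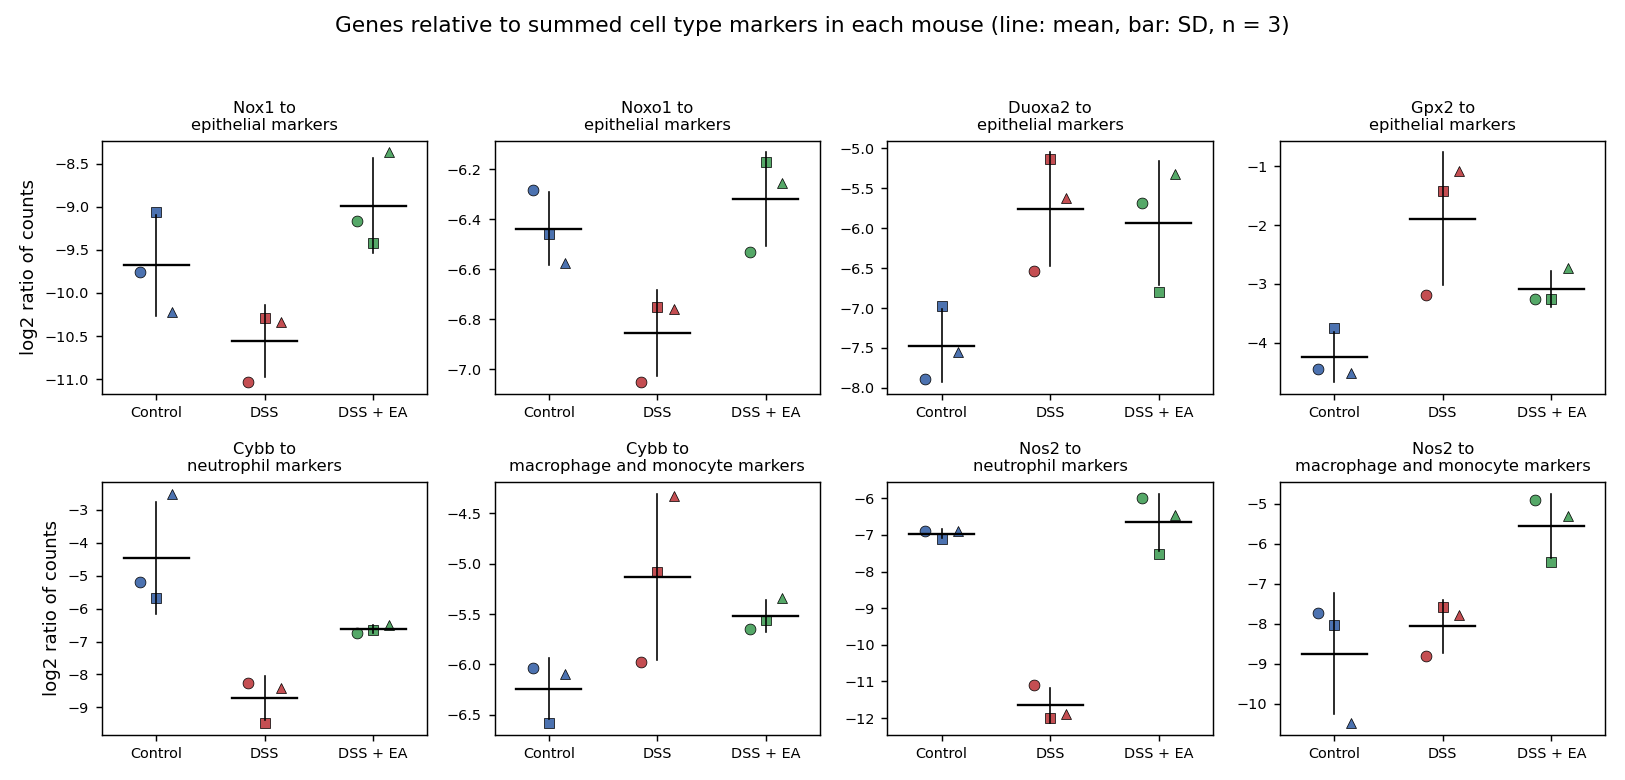
Log2 ratio of the counts of Nox1, Noxo1, Duoxa2, Gpx2, Cybb and Nos2 to the summed counts of cell type markers (vertical axes) in each mouse, with circles, squares and triangles for mice 1, 2 and 3, lines at the means and bars of 1 SD (n = 3). Nox1 and Noxo1 are lowest in DSS mice relative to epithelial markers, and Nos2 relative to macrophage and monocyte markers is highest in the 3 DSS + EA mice.

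Of the 12 further oxidase partners listed, 8 were tested. With DSS, 5 rose, among them Ncf4, Rac2, Nrros and Hvcn1, and Cybc1 fell. Among those tested, 5 fell in DSS + EA against DSS mice, including the 4 genes named, and Cybc1 rose. The list medians were 1.73 and -1.04 on the log2 scale, beside 0.02 and -0.02 for all genes tested. Ncf4, encoding p40phox, had log2 fold changes of 4.10 ± 0.82 (adjusted p = 0.00352) and -2.46 ± 0.72 (adjusted p = 0.0255), and Nrros, which controls NOX2 protein levels, 2.38 ± 0.43 (adjusted p = 0.0021) with DSS. Hvcn1, a proton channel that balances the charge moved by the phagocyte oxidase, had -1.53 ± 0.43 in DSS + EA against DSS (adjusted p = 0.0214). Cybc1, a chaperone of the NOX2 heterodimer, had -0.89 ± 0.27 (adjusted p = 0.0256) and 1.07 ± 0.27 (adjusted p = 0.0137). Duox1, Duoxa1, Nox3 and Nox4 were not tested and had at most 4 reads in any mouse.

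In the nitric oxide and arginine list, 14 of 16 genes were tested. In DSS against control 2 rose and 3 fell, and in DSS + EA against DSS 3 rose and 2 fell. Of all genes tested, 21.5% rose and 19.5% fell in the former comparison, and 17.2% rose and 18.3% fell in the latter. The list medians were 0.54 and -0.04 on the log2 scale, beside 0.02 and -0.02 for all genes tested. Arg1, an arginase that uses the same substrate as NOS2, had 4, 10 and 10 reads in control, 81, 247 and 854 in DSS and 63, 54 and 78 in DSS + EA mice. Its log2 fold changes were 5.45 ± 0.90 (adjusted p = 0.00134) and -2.43 ± 0.74 (adjusted p = 0.0282). Ass1, which supports arginine synthesis, had 0.94 ± 0.18 (adjusted p = 0.00293) and -0.73 ± 0.18 (adjusted p = 0.0124). Qdpr, Spr and Pts, of tetrahydrobiopterin synthesis and recycling, fell with DSS by 1.24, 0.96 and 0.92 on the log2 scale and rose in DSS + EA against DSS by 0.82, 0.62 and 0.85. With RLE size factors, 2 of the list passed upward in the latter comparison. Gch1, the first enzyme of that pathway, had 80 reads in DSS + EA mouse 1 and 8 and 13 in mice 2 and 3.

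All 24 genes of peroxide and superoxide removal were tested. In DSS against control 8 rose and 4 fell, where 21.5% of all genes rose and 19.5% fell. In DSS + EA against DSS 4 rose and 6 fell, where 17.2% of all genes rose and 18.3% fell. The list medians were 0.28 and -0.32 on the log2 scale, beside 0.02 and -0.02 for all genes tested. Gpx3, a secreted glutathione peroxidase, had log2 fold changes of 3.06 ± 0.23 (adjusted p = 3.06e-05) and -1.78 ± 0.22 (adjusted p = 0.00066). Sod2, the mitochondrial superoxide dismutase, had 2.57 ± 0.37 and -2.20 ± 0.37, and Gclc, of glutathione synthesis, 1.61 ± 0.20 and -1.63 ± 0.20. Catalase (Cat) had -1.26 ± 0.41 (adjusted p = 0.033) and 1.35 ± 0.41 (adjusted p = 0.0289). Prdx2 and Prdx3, peroxiredoxins of cytosol and mitochondria, fell by 0.71 and 0.81 with DSS and rose by 0.66 and 0.76 in DSS + EA against DSS, and Txnrd2 fell by 1.38 with DSS. With RLE size factors 2 of the list, in place of 4, passed upward in DSS + EA against DSS. Among the peroxidases, Lpo alone was tested and did not pass, Mpo had at most 3 reads and Epx was at 0 in every mouse.

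**Figure D4:**
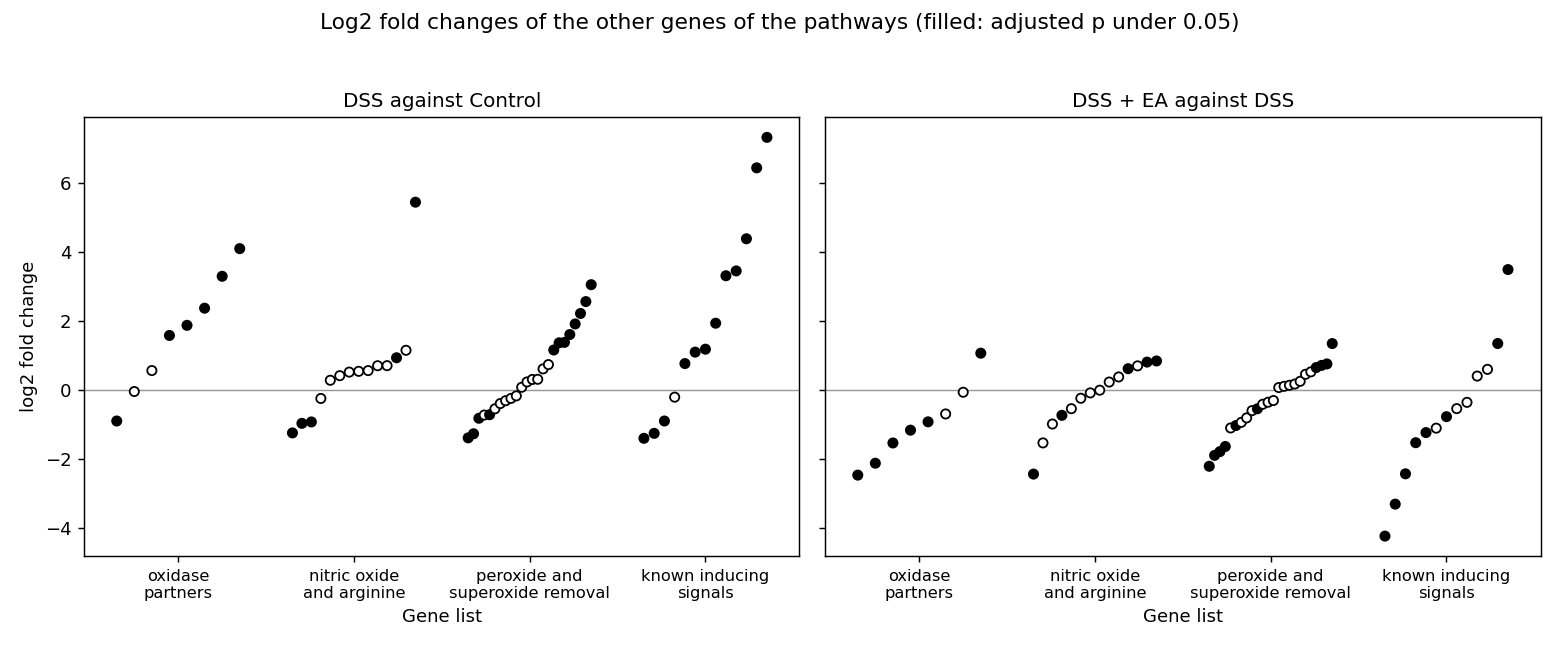
Fitted log2 fold changes (vertical axis) of the tested genes of 4 lists in DSS against control mice (left) and DSS + EA against DSS mice (right), with filled points for an adjusted p under 0.05. Of the 8 oxidase partners tested, 5 lie above 0 and pass on the left and 5 lie below 0 and pass on the right.

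Another list held 16 genes of signalling pathways known to induce the members: cytokines, receptors, transcription factors and the NF-kB inhibitor gene Nfkbia. Of these, 13 were tested. In DSS against control 9 rose and 3 fell, where 21.5% of all genes rose and 19.5% fell. In DSS + EA against DSS 2 rose and 6 fell, where 17.2% of all genes rose and 18.3% fell. The list medians were 1.19 and -0.77 on the log2 scale, beside 0.02 and -0.02 for all genes tested. Irf1, which acts downstream of interferons, had 313, 218 and 184 reads in control, 91, 158 and 181 in DSS and 331, 259 and 344 in DSS + EA mice. It fell with DSS by 0.89 ± 0.24 on the log2 scale (adjusted p = 0.0149) and rose in DSS + EA against DSS by 1.35 ± 0.24 (adjusted p = 0.00297). The receptor gene Ifngr2 fell with DSS by 1.25 ± 0.45 (adjusted p = 0.0467), and Ifng itself had at most 3 reads. Nfkbia, an NF-kB inhibitor and target, had log2 fold changes of 3.46 ± 0.27 and -2.42 ± 0.26, and Stat3, activated by interleukin 6 type cytokines, 1.94 ± 0.25 and -1.52 ± 0.25. Il6 had at most 1 read in control mice and was at least 41.0-fold higher in DSS mice, computed against 3 counts per library, and fell by 4.23 ± 0.42 on the log2 scale in DSS + EA against DSS.

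In the cell type lists, all 10 neutrophil markers tested rose with DSS, led by S100a8, S100a9 and Ngp, and 8 fell in DSS + EA against DSS, led by Ngp, Camp and S100a8. Of 12 macrophage and monocyte markers, 10 rose, led by C1qc, Mrc1 and C1qa, and 8 fell, led by Mrc1, Cd163 and C1qc. Of 12 epithelial markers, 6 fell with DSS, led by Cldn3, Vil1 and Cdx2, and 4 rose in DSS + EA against DSS, led by Vil1, Cldn7 and Cldn3. Among the 12 pancreatic markers, Clps and Cela1 fell with DSS, and all 12 were higher in DSS + EA than in DSS mice, led by Prss2, Cela2a and Try4. Across all genes tested, 21.5% rose and 19.5% fell with DSS, and 17.2% rose and 18.3% fell in DSS + EA against DSS.

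The genes whose log2 CPM followed a member most closely over the 9 mice are a description, since group differences and library depth are common to all genes. For Duox2 these were Stmn1 (Pearson r = 0.96), Usp45 (0.95) and Hdac2 (0.95). For Nox1 they were Sae1, Shmt1 and Trap1, with r between 0.986 and 0.991. Cybb was followed by Trem3, Mcemp1 and Ms4a6c, with r between 0.987 and 0.992. Nos2 was followed by Ifi205 (r = 0.97), Gbp9 (0.95) and Gbp2 (0.95), and Gbp2 had 46, 42 and 26 reads in control, 58, 111 and 209 in DSS and 354, 105 and 321 in DSS + EA mice. Among the members, Noxo1 and Noxa1 had r = 0.97, Cybb and Ncf1 0.95 and Noxa1 and Cyba -0.95, whereas Duox2 and Duoxa2 had 0.69, all over 9 mice.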

How the data were processed

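PCR-amplified full-length cDNA libraries from the colons of 9 mice, 3 per group, were read on a PromethION (Oxford Nanopore). The deposited values are raw read counts for each gene in each library. The build in the submitters' processing notes is mm10. The aligner, counting tool, annotation and use of strand are not given in the sources used here, so reads of overlapping or near-identical genes may be divided between them. Positions and exon overlaps are from GENCODE M21. Of 27733 table lines, 14 held no counts.

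Differential expression was tested by edgeR 4.0.16 in R 4.3.3 (TMM, filterByExpr by group, prior count 0.125, quasi-likelihood F test; 12566 genes tested, Benjamini-Hochberg adjustment over all), in one fit of all 9 libraries with group as the term. The standard error is the log2 fold change divided by the square root of F. DEGs were defined by the study's cutoffs, 2.5 on the log2 scale and P under 0.01. The study's methods name DESeq2, and DESeq2 1.42.0 was an alternative. Log2 ratios used counts plus 0.5, and p-values for them came from exact permutation tests (scipy 1.17.1). Sums of markers used raw counts. Correlations used log2 CPM with a prior count of 2.

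Counts were simulated for 12566 genes with known changes in DSS against Control. There edgeR called 87% of genes changed by 2 on the log2 scale and 96% of those changed by 3, with 14 unchanged genes called. DESeq2 called 94% and 97%, with 30 unchanged genes called. The changed genes, 100 per size of change, were drawn only from genes above a minimum mean CPM that Nos2 did not reach. Far fewer genes were changed than were called in the data, so these rates do not describe Nos2 or the real share of changes. Library totals were 2627695 to 4235576 counts. Nothing in the labels says that mice within a group shared a cage or litter, and p-values measure the spread between these mice. The members, gene lists, motifs and tests were chosen with earlier results of these data known. The genes named are the members and up to 3 genes per list and direction with the smallest adjusted p. The 3 genes most like Duox2, Nox1, Cybb and Nos2 are also named. Tbl3, Gch1, Gpx1, Ly6g, Gbp2's counts and the untested list genes were added after values were seen. Some genes that this rule names are not reported here.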

Additional observations from a re-analysis of the deposited data

How the results depend on the processing

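In DSS against control, 5 members were higher and 3 lower with DESeq2, RLE size factors, library totals, no filter, a mean of at least 20 counts and without pancreatic marker genes. The calls became 6 (4 higher, 2 lower) with only the 2 groups, where Noxa1 was lost (adjusted p = 0.0581) and Nos2 did not pass the filter, 6 at an adjusted p under 0.01, without Noxa1 and Nos2, and 7 without DSS + EA mice 2 and 3, where Noxa1 was lost (adjusted p = 0.0511). Leaving out 1 mouse gave 6 to 8 calls in all (4 to 5 higher, 2 to 3 lower). In DSS + EA against DSS, the 5 calls became 7 (4 higher, 3 lower) with DESeq2, which added Nos2 and Ncf1, 6 with no filter, which added Nos2, 2 (0 lower) with only the 2 groups, 1 (1 higher, 0 lower) at an adjusted p under 0.01, 1 (1 higher, 0 lower) without DSS + EA mice 2 and 3, and 2 to 6 (2 to 4 higher, 0 to 3 lower) when 1 mouse was left out. In DSS + EA against control, the 1 call became 4 with DESeq2, 3 with no filter and 6 with only the 2 groups. It became 0 at an adjusted p under 0.01 and 0 to 4 when 1 mouse was left out. The share of all genes that passed under these alternatives is not given here. The counts of members called therefore cannot be set against it. The cause of these changes was not tested.

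Values near 0 changed sign. Duox2 in DSS against control ranged from -0.84 to 0.22 over the fits without 1 mouse. Gpx2 in DSS + EA against DSS was 0.013 with no filter and -0.30 to 0.12 without 1 mouse. Noxo1 in DSS + EA against control was -0.031 with library totals, -0.023 without pancreatic markers, -0.045 with a mean of at least 20 counts, -0.17 without DSS + EA mice 2 and 3 and -0.070 to 0.065 without 1 mouse, and Noxa1 there was -0.047 to 0.11 without 1 mouse.

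No pairing by replicate number was seen: deviations of mice with the same number had correlations between -0.16 and 0.105. Those of mice with different numbers lay between -0.204 and 0.256. With 3 mice per group this check cannot show that the mice were unpaired. With the replicate block, 8, 5 and 1 members were called, as without it. Depth limits Nos2 (7 reads in the control mice together), Cybb (33) and Ncf1 (37) in control mice and Nox1 (39) in DSS mice.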
